A study of Mus musculus with 686 samples.

Results

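The mouse miRNAs mmu-miR-208a-3p, mmu-miR-208b-3p, mmu-miR-499-5p and mmu-miR-499-3p, written without their prefix from here on, are the 4 rows, of 1964 miRNA rows measured, that were taken by name as products of miRNA hairpins lying inside myosin heavy chain genes. They were read in 686 small RNA libraries, each made from 1 of 13 tissues of 1 mouse, and all mice were female BALB/cAnNTac of 3 or 8 months. Mice in the FL arm flew on the International Space Station, HGC mice lived on Earth in flight habitats at matched density, temperature, humidity and carbon dioxide, and VGC mice lived in standard cages. LAR mice of the FL arm returned alive after the longer flight and were collected some days after landing, following functional assays. All LAR mice were dissected fresh (348 libraries, 114 FL, 113 HGC and 121 VGC). TERM mice were killed earlier in the mission, on orbit, or on Earth for the controls. They were frozen as whole carcasses and thawed for dissection (338 libraries, 115 FL, 114 HGC and 109 VGC). Controls followed the same timelines. LAR and TERM therefore differ in days, return and preservation at once, which cannot be told apart. All mice, controls included, were bled by cardiac puncture before the heart was taken. The TERM spleens were the exception to freezing in the carcass, since they were removed fresh into a preservative. Heart held 6 FL, 6 HGC and 10 VGC libraries in LAR and 9, 9 and 10 in TERM, and diaphragm held 10 of each arm, except for 9 VGC libraries in TERM.

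Myosin heavy chain genes carry these miRNAs in their introns, so that the motor protein and the miRNA come from the same primary transcript. Myh6 encodes the fast alpha chain of the adult mouse heart and hosts miR-208a. Myh7 encodes the slow beta chain of the fetal or stressed heart and of slow skeletal fibres and hosts miR-208b, and Myh7b hosts miR-499. The miRNAs are known to repress transcriptional regulators such as Sox6 and Med13, and so to favour the slow fibre programme in skeletal muscle and the response to load and thyroid hormone in heart. The diaphragm, the skeletal muscle sampled here, is a mixture of fast and slow fibres, and no purely slow muscle was among the tissues.

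The mature sequences are shown because the members differ by very few bases, which bears on how reads are assigned to them. Capitals mark the seed, bases 2 to 8, by which a miRNA recognises its targets.
miR-208a-3p: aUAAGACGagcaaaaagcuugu
miR-208b-3p: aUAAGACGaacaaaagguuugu
miR-499-5p: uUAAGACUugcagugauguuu
miR-499-3p: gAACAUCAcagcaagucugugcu
Among 1738 mature mouse miRNAs in the RefSeq table, the seed UAAGACG belonged to miR-208a-3p and miR-208b-3p alone. The seed of miR-499-5p differed from it by G8U, with positions counted from 1 at the 5′ end of miR-208a-3p. The miR-208 sequences were identical at 19 of 22 positions and differed by G10A, A16G and C18U, outside the seed. A read that ends before these positions or carries an error there could be given to the wrong member. None of the counts of the 4 members carried a fraction, whereas 0.790% of all miRNA values did, as happens when a read is divided between entries.

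In RefSeq's GRCm38.p6 coordinates, which are not the GRCm39 build of the reads, miR-208a-3p lay at chr14:54949072-54949093 on the minus strand, in intron 29 of the longest coding Myh6 transcript with 39 exons. miR-208b-3p lay at chr14:54975710-54975731 on the same strand, in intron 31 of Myh7 with 41 exons, and the mature sequences started 26.6 kb apart. miR-499-5p lay at chr2:155622893-155622913 and miR-499-3p at chr2:155622929-155622951 on the plus strand, both in intron 19 of Myh7b with 42 exons. The miR-499 strands are the 5′ and 3′ arms of 1 hairpin, so their counts have 1 source. The opposite strands of the miR-208 hairpins, miR-208a-5p and miR-208b-5p, were not members and were used as a check on the 3′ strands.

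Levels are given as CPM, counts per 1 M miRNA counts of the library, where M is the SI prefix mega. Libraries held 0.181 to 30.5 M miRNA counts with a median of 3.88 M, and 3.30 to 14.9 M in heart, so that the limit allowed by a count of 0, which is 3 counts, ranged from 0.0985 to 16.5 CPM with a median of 0.774 CPM. These limits cover counting error only. Before any result, each library's miRNA profile without the 4 members was compared with the median profile of every tissue over 726 miRNAs. In 163 of 686 libraries the profile was closest to a tissue other than the label, among them 43 of 57 MAT (mesenteric adipose tissue), 20 of 60 BAT (brown adipose tissue), 10 of 50 heart and 19 of 59 diaphragm libraries. In addition, 7 of 636 libraries labelled as another tissue had the profile of heart. Of the 163, 117 sat in 11 of the 44 sequencing pools, where such libraries made up more than 1 in 3 and which are called doubtful pools here. No library was relabelled, and values are given for all libraries and for the libraries whose profile matched their label, called matched libraries here.

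All 4 members were highest in heart. In the 40 matched heart libraries the median was 1535 CPM for miR-499-5p (493 to 2667), 914 CPM for miR-208a-3p (306 to 2471), 71.9 CPM for miR-208b-3p (32.8 to 181) and 44.2 CPM for miR-499-3p (12.9 to 115). Together they took a median of 0.256% of the miRNA counts of a matched heart library (0.108 to 0.457%). With all 50 heart libraries the medians were 1352, 841, 60.6 and 35.0 CPM. Since small RNA ligation does not treat all sequences alike, a ratio between miRNAs is used below only to compare tissues, not to count molecules. In tissue RNA, fewer cells of a type and less RNA per cell cannot be told apart.

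Beyond heart the members had different orders of tissues. For miR-499-5p, matched heart was followed by diaphragm at a median of 79.2 CPM (16.9 to 289), BAT at 25.8 CPM (5.61 to 89.6) and spleen at 12.8 CPM (0.541 to 49.4). Every matched heart library lay above every matched diaphragm library, and the share of all miRNAs for which ranges did not overlap was not counted. For miR-208a-3p, heart was followed by thymus at 32.3 CPM (0 to 320) and lung at 22.4 CPM (8.73 to 91.0), with diaphragm only at 2.33 CPM (0 to 15.4). For miR-208b-3p, the fold between first and second was smaller, with diaphragm at 38.5 CPM (6.45 to 127), lung at 31.3 CPM (12.3 to 57.4) and BAT at 13.0 CPM (1.02 to 37.1). miR-499-3p kept the order of its partner strand at the top, with diaphragm at 6.18 CPM (0 to 17.7) and BAT at 1.22 CPM.

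**Figure D1:**
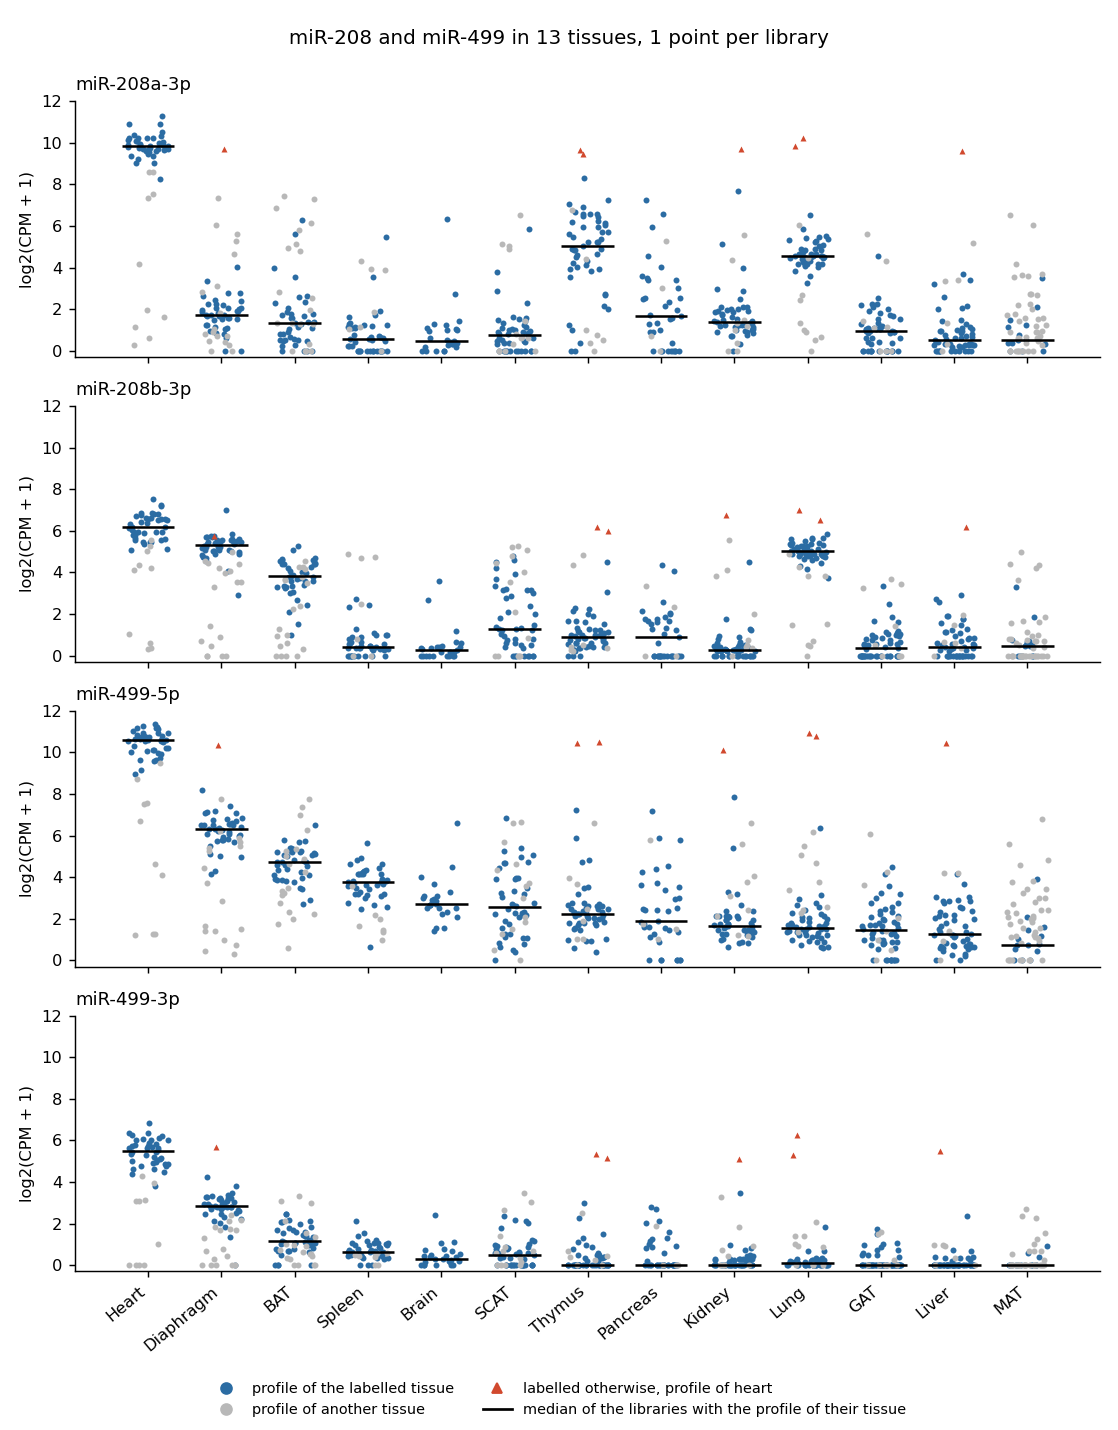
Each panel plots 1 member in every library of the 13 tissues, as log2(CPM + 1), with blue points for libraries whose profile matched the label, grey points for those closer to another tissue and red triangles for libraries labelled otherwise with the heart profile. Black lines are medians of matched libraries, and all 4 members were highest in heart, while miR-208a-3p had its next medians in thymus and lung and miR-208b-3p in diaphragm and lung.

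Most neighbours in these orders did not differ beyond their spread. Of the 12 pairs of neighbouring tissues, the middle 50% of the matched libraries overlapped in 10 for miR-208a-3p, 9 for miR-208b-3p, 9 for miR-499-5p and 10 for miR-499-3p. The exceptions were heart over the next tissue for every member, lung over diaphragm for miR-208a-3p, lung over BAT and BAT over SCAT (subcutaneous adipose tissue) for miR-208b-3p, diaphragm over BAT for both strands of miR-499, and spleen over brain for miR-499-5p. In the other tissues miR-208a-3p had medians of 0.390 CPM (brain) to 2.17 CPM (pancreas), close to the median limit of 0.774 CPM, and miR-208b-3p had 0.190 CPM (brain) to 1.42 CPM (SCAT). For miR-499-5p the corresponding medians ran from 0.697 CPM in MAT to 5.62 CPM in brain. The MAT value rests on 14 of 57 libraries, and with all libraries MAT had 1.91 CPM and liver was lowest, at 1.53 CPM.

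Heart and diaphragm were compared to set cardiac against skeletal muscle expression, by edgeR's quasi-likelihood test over all miRNAs with Benjamini-Hochberg adjustment. All 4 members were higher in heart in both extractions, where 12.2% of all miRNAs tested were called higher in heart in LAR and 12.2% in TERM, and 24.8% and 30.4% in either direction. The log2 difference of heart minus diaphragm was largest for miR-208a-3p, at 6.63 ± 0.71 (SE, adjusted p = 4.64e-10) in LAR, with 52 libraries, and 7.05 ± 0.67 (adjusted p = 1.54e-12) in TERM, with 57 libraries. In the matched libraries it was 8.46 ± 0.28 (adjusted p = 1.87e-31) and 8.71 ± 0.37 (adjusted p = 1.08e-25). The matched libraries of heart (306 to 2471 CPM) and diaphragm (0 to 15.4 CPM) did not overlap, and the share of all miRNAs without overlap was not counted. Matched libraries were picked by tissue profile in these same data, with miR-208a-5p kept in the profile. Separation of the tissues in them, for every member, is therefore partly built in.

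miR-499-5p, the product of Myh7b, differed by 4.18 ± 0.56 (edgeR adjusted p = 2.38e-07) in LAR and 4.14 ± 0.50 (adjusted p = 1.54e-09) in TERM, or 4.59 ± 0.21 and 4.07 ± 0.24 in the matched libraries. Its partner strand miR-499-3p differed by 2.87 ± 0.50 (adjusted p = 2.07e-05) and 3.08 ± 0.45 (adjusted p = 2.3e-07), and by 3.02 ± 0.22 and 2.95 ± 0.27 in the matched libraries. The level of miR-499-5p per miR-499-3p in matched libraries accordingly had a median of 34.6 in heart (14.2 to 59.6) and 13.4 in diaphragm (3.00 to 56.5), where the 3′ strand rested on few counts.

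miR-208b-3p, the product of the slow beta chain gene, showed the smallest difference. It was 1.24 ± 0.41 (edgeR adjusted p = 0.0203) in LAR and 1.11 ± 0.44 (adjusted p = 0.0461) in TERM, and 1.11 ± 0.16 (adjusted p = 1.49e-07) and 0.99 ± 0.20 (adjusted p = 5.73e-05) in the matched libraries. With all libraries the call was lost in LAR with DESeq2 size factors (adjusted p = 0.0567) and without a filter on low counts (0.0522), and in TERM with those size factors (0.0883), with library size alone (0.0642) and with the DESeq2 test (0.0622). The direction held under each of these.

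The ratio within the miR-208 pair differed between the muscles. miR-208b-3p per miR-208a-3p had a median of 0.0843 in matched heart (0.0249 to 0.144) and of 15.5 in matched diaphragm (4.42 to 83.5, in the 38 libraries with both above 0), so the ranges did not overlap. In diaphragm the miR-208b-3p level was closer to miR-499-5p, at a median of 0.491 per miR-499-5p (0.278 to 0.956), against 0.0510 in heart (0.0136 to 0.145).

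**Figure D2:**
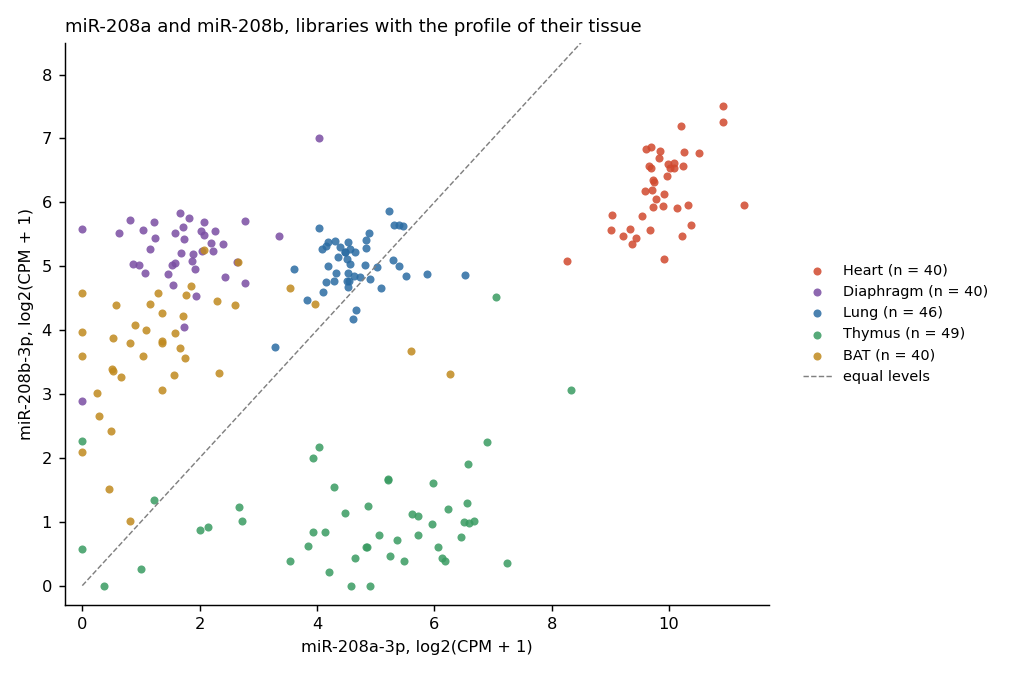
miR-208b-3p is plotted against miR-208a-3p as log2(CPM + 1) in the matched libraries of heart (40), diaphragm (40), lung (46), thymus (49) and BAT (40), with a dashed line at equal levels. Heart lies below the line at high values of both, diaphragm above it, lung along it and thymus far below it, as the median ratios of 0.0843, 15.5, 1.42 and 0.0236 state.

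The other miRNAs of the striated muscle set checked the labels. Of 11 listed, 10 were tested between heart and diaphragm, and with all libraries 1 was higher in heart, 1 was lower and 8 were not called in either extraction. The higher one was miR-208a-5p, the opposite strand of miR-208a, at 6.69 and 6.88 on the log2 scale. The lower one was miR-206-3p, a miRNA of skeletal muscle and its precursor cells, at -7.22 in LAR and -7.90 in TERM. Its matched medians were 17.0 CPM in heart (5.61 to 1053) and 41900 CPM in diaphragm (7629 to 168400). miR-133a-3p, which both muscles share, had 228200 CPM in heart and 275500 CPM in diaphragm, and miR-1a-3p had 41620 and 38930 CPM.

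In matched libraries miR-133b-3p (-0.70 in LAR and -0.69 in TERM) and miR-1a-1-5p (-0.95 and -1.02) were also called lower in heart, and miR-486a-5p (0.63) and miR-486b-5p (0.65), which red blood cells carry too, were called higher in TERM. In the matched libraries 37.2% of all miRNAs tested were called in each extraction, and 19.2% were called higher in heart in LAR and 21.0% in TERM.

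Flight was compared with the habitat control in heart next, since heart held the highest level of every member. With all 22 LAR heart libraries, no member was called in FL vs. HGC, FL vs. VGC or HGC vs. VGC, and neither was any of the 1321 miRNAs tested (0%, with 144 at an unadjusted p under 0.05 in FL vs. HGC). No member was called in FL vs. HGC by DESeq2 or the Wilcoxon rank-sum test either. With so few libraries per arm, the rank-sum test can pass the adjustment only if many miRNAs reach its lowest possible p. The log2 differences of FL vs. HGC were 0.16 ± 1.02 for miR-208a-3p, 0.99 ± 0.70 (edgeR adjusted p = 0.567) for miR-208b-3p, -0.40 ± 1.01 for miR-499-5p and 0.01 ± 0.96 for miR-499-3p. These 22 libraries include 5 whose profiles were those of diaphragm, lung, kidney and brain, in which miR-208a-3p lay at 0.231 to 385 CPM.

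miR-208b-3p differed between arms of LAR heart in the 17 matched libraries. The 5 FL libraries held 146, 95.7, 91.5, 84.2 and 69.1 CPM (97.3 ± 29.0, mean ± SD), and the 5 HGC libraries held 61.0, 59.1, 43.2, 33.7 and 32.8 CPM (46.0 ± 13.5). The 7 VGC libraries ran from 97.0 to 152 CPM with a median of 110 CPM (114 ± 17.9). All HGC libraries were therefore below all FL and all VGC libraries, while FL and VGC overlapped. Ranges that did not overlap were found for 1.28% of the 1251 miRNAs tested between FL and HGC and for 0.400% between HGC and VGC.

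The log2 difference of FL vs. HGC was 1.15 ± 0.28 (edgeR adjusted p = 0.0277) in the matched libraries, in a comparison that called 1.04% of miRNAs. HGC vs. VGC gave -1.26 ± 0.26 (adjusted p = 0.0326), and miR-208b-3p was the single miRNA called there, 0.0799% of those tested. FL vs. VGC gave -0.11 ± 0.25, with 0.240% called. The comparisons share the HGC libraries. Leaving out the whole doubtful pools, in place of single libraries, removed the same 5 libraries and gave the same values.

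This result rested on few libraries and on the test. Leaving out each of the 17 matched libraries in turn gave 1.00 to 1.30 for FL vs. HGC, with 12 of 17 fits past the threshold (adjusted p 0.0143 to 0.0784), and -1.43 to -1.15 for HGC vs. VGC, also with 12 of 17 (adjusted p 0.0146 to 0.0665). On the same matched libraries FL vs. HGC and HGC vs. VGC had adjusted p of 0.0255 and 0.0134 with DESeq2 size factors, 5.95e-06 and 6.64e-09 with the DESeq2 test, 0.0658 and 0.0455 with library size alone, 0.0779 and 0.0397 with robust dispersions, and 0.552 and 0.702 with the Wilcoxon rank-sum test, which called no miRNA. These alternatives on matched libraries were chosen after seeing the data. The rank-sum p has a lowest possible value set by the group sizes, and ranges without overlap, as for miR-208b-3p here, already give it. The absence of a Wilcoxon call was therefore set by the number of libraries and cannot weigh the difference.

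HGC libraries were the lowest within the 4 plates that held HGC beside another arm, of which only plates 2 and 7 held FL. Plate 2 had FL libraries at 146 and 84.2 CPM of miR-208b-3p, HGC libraries at 61.0 and 43.2 CPM and VGC libraries at 109, 110 and 152 CPM. Plate 7 had 91.5, 32.8 and 115 CPM in FL, HGC and VGC. Plates 5 and 8 held an HGC library each, at 59.1 and 33.7 CPM, beside VGC libraries at 97.0 and 103 CPM. Plate 3 held FL alone and plate 4 VGC alone. The 5 unmatched libraries had 32.0 CPM (FL), 45.6 CPM (HGC) and 0.231, 17.4 and 37.5 CPM (VGC).

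**Figure D3:**
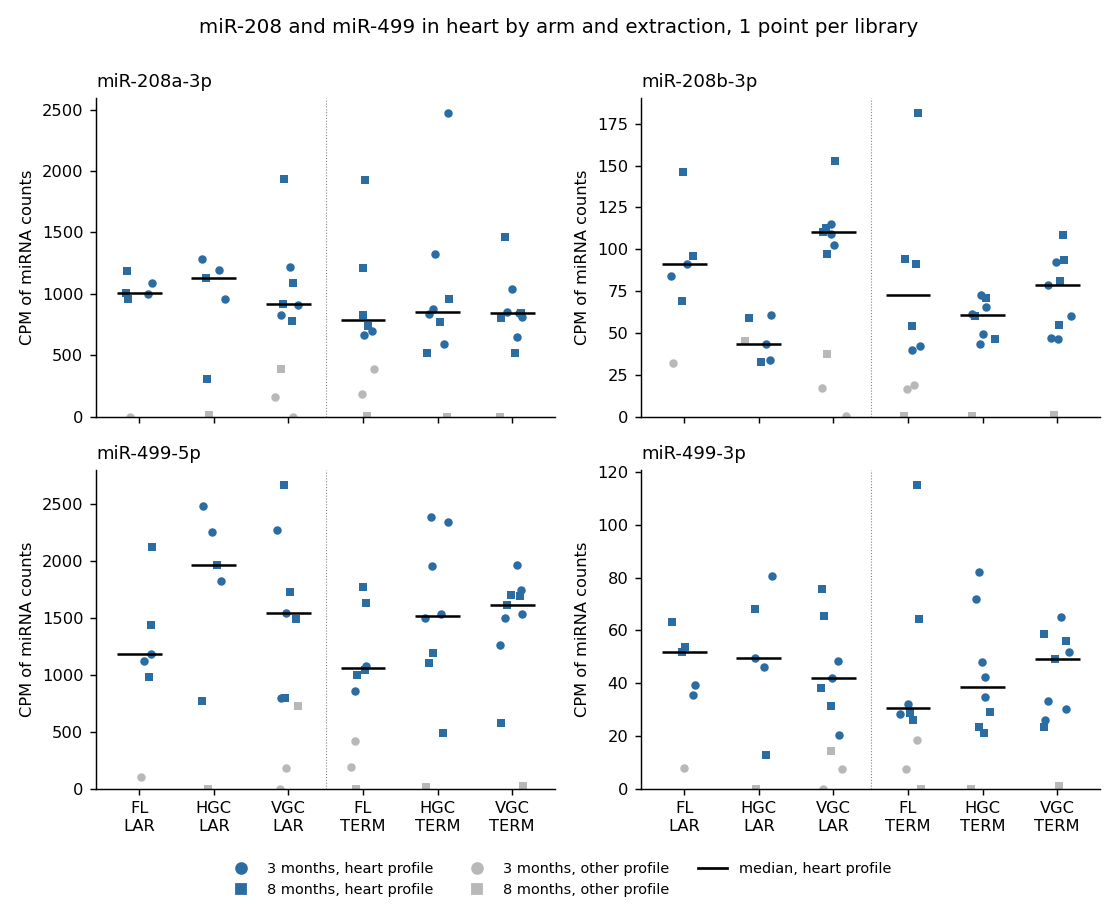
CPM of the 4 members in every heart library is plotted by arm and extraction, with circles for mice of 3 months and squares for mice of 8 months, blue for the heart profile and grey for the profile of another tissue. Black lines are medians of matched libraries, and in LAR the HGC libraries of miR-208b-3p (32.8 to 61.0 CPM) lie below those of FL and VGC, while in TERM the arms overlap.

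The other members did not follow this pattern. miR-208a-3p had matched LAR medians of 1009 CPM in FL, 1130 CPM in HGC and 919 CPM in VGC, and FL vs. HGC gave 0.23 ± 0.29. miR-499-5p had medians of 1187, 1969 and 1548 CPM, with FL vs. HGC at -0.37 ± 0.31, and miR-499-3p had 51.9, 49.7 and 42.0 CPM, with 0.05 ± 0.35. None of these was called, and leaving out each library in turn gave no call for them either. The ratio of miR-208b-3p to miR-208a-3p was 0.0718 to 0.123 in FL, 0.0352 to 0.107 in HGC and 0.0786 to 0.144 in VGC, and here FL and HGC overlapped.

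TERM heart did not show the difference. miR-208b-3p had matched medians of 72.9 CPM in FL (39.9 to 181), 60.9 CPM in HGC (43.6 to 72.5) and 78.8 CPM in VGC (46.3 to 109), and the 3 arms overlapped. FL vs. HGC gave 0.01 ± 0.69 with all libraries and 0.36 ± 0.28 (edgeR adjusted p = 0.822) in the matched ones. The difference between LAR and TERM in this contrast was not tested. miR-499-5p medians were 1057, 1518 and 1617 CPM in FL, HGC and VGC, with FL vs. HGC at -0.52 ± 0.29 (adjusted p = 0.692). Of all miRNAs tested, 0.0762% were called in FL vs. HGC and 1.60% in FL vs. VGC with all libraries, and 0% in both with the matched ones.

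miR-499-5p in matched heart libraries differed between plates, given here as a description with no test. Plate 4 held 493 to 860 CPM (4 libraries) and plate 7 held 768 to 1189 CPM (4), followed by 982 to 1748 CPM on plate 3 (8), 1002 to 1690 CPM on plate 6 (5), 1119 to 2256 CPM on plate 2 (10), 1617 to 2667 CPM on plate 5 (4), 1968 to 2487 CPM on plate 8 (4) and 2342 CPM in the 1 library of plate 1. Plates 4 and 8 did not overlap, and for miR-208a-3p they had 516 to 782 and 815 to 959 CPM. Plate 8 held 2 HGC and 2 VGC libraries and plate 4 held 1 FL, 1 HGC and 2 VGC libraries, over both extractions. The part of the plate in the arm medians of miR-499-5p was not tested.

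Across matched heart libraries, the members varied together to different degrees, given here as Pearson's r of log2(CPM + 1) over 40 libraries, which share pools and depth. miR-208a-3p followed miR-499-3p (0.825) and miR-499-5p (0.604), and the miR-499 strands followed each other (0.745). miR-208b-3p followed miR-208a-3p (0.538) more than miR-499-5p (0.150). In diaphragm the closest pair was miR-208b-3p and miR-499-5p (0.810, 40 libraries), while miR-208a-3p and miR-499-5p had 0.207 there.

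No member was called between arms of diaphragm, with all or with matched libraries. Matched LAR medians of miR-208b-3p were 39.5 CPM in FL (28.5 to 46.5), 43.5 CPM in HGC (15.6 to 50.7) and 41.9 CPM in VGC (25.2 to 56.1). Those of miR-499-5p were 64.9, 82.1 and 65.5 CPM. In TERM they were 46.0, 40.1 and 31.5 CPM for miR-208b-3p and 91.7, 144.5 and 71.1 CPM for miR-499-5p, with the arms overlapping. edgeR called 0% of miRNAs in any arm comparison of diaphragm with all libraries, with 108 miRNAs of LAR and 134 of TERM at an unadjusted p under 0.05 in FL vs. HGC. In matched libraries it called 0% in the 3 comparisons of LAR and in FL vs. HGC of TERM, with 74 to 120 at an unadjusted p under 0.05. In the other TERM comparisons of matched libraries it called 1.37% (FL vs. VGC) or 0.484% (HGC vs. VGC). There miR-499-5p gave 0.99 ± 0.40 in HGC vs. VGC (edgeR adjusted p = 0.239).

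The arm differences of miR-208a-3p in LAR diaphragm depended on the libraries used. With all libraries, miR-208a-3p gave -4.29 ± 1.10 (edgeR adjusted p = 0.268) in FL vs. VGC and -4.89 ± 1.15 (adjusted p = 0.0948) in HGC vs. VGC of LAR. The VGC library of mouse 4, which had the heart profile, held 842 CPM there, against a group median of 2.96 CPM. A second VGC library with another profile, of mouse 16, held 37.8 CPM. In the 21 matched of 30 libraries, which leave out both, the same differences were -0.13 and -0.23, and the part of mouse 4 alone was not tested. The flight effect on miR-208b-3p in heart minus that in diaphragm was 0.97 ± 0.41 (adjusted p = 0.448) in the matched LAR libraries, so the effects were not shown to differ between the muscles.

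**Figure D4:**
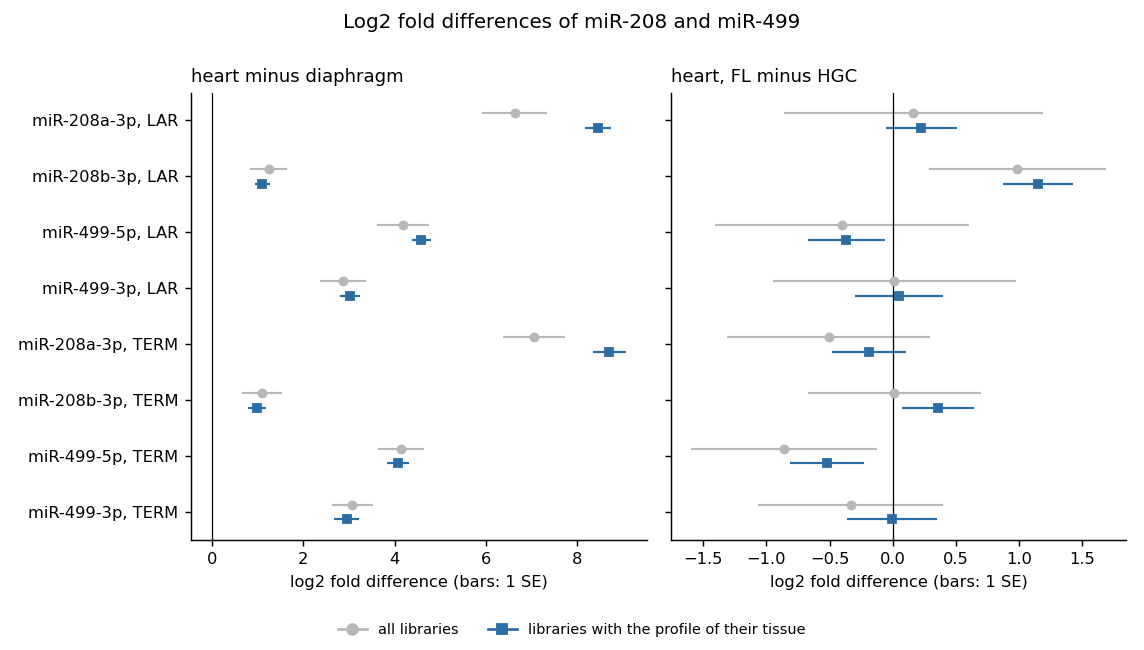
The left panel plots the log2 difference of heart minus diaphragm and the right panel that of FL minus HGC in heart, for each member in LAR and TERM, with grey for all libraries, blue for matched libraries and bars of 1 SE. All differences on the left are above 0, from 0.99 to 8.71, and on the right miR-208b-3p of matched LAR libraries (1.15 ± 0.28) is the only one called.

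Neither age nor extraction gave a call for a member in heart or diaphragm. In TERM heart with all libraries, 0.152% of miRNAs were called by age and 2.52% by the interaction of age and flight. In matched TERM heart, miR-208b-3p had a median of 54.6 CPM at 3 months (39.9 to 92.4, n = 12) and 80.8 CPM at 8 months (46.4 to 181, n = 11), a log2 difference of 0.49 ± 0.22 (edgeR adjusted p = 0.322). The interaction of age and flight in that set was 1.24 ± 0.56 for miR-208b-3p, 1.33 ± 0.59 for miR-208a-3p, 1.35 ± 0.55 for miR-499-5p and 1.99 ± 0.70 for miR-499-3p, with adjusted p from 0.521 to 0.597, where 0.0784% of miRNAs were called. In LAR heart the interaction of miR-208b-3p was 0.55 ± 1.42 with all libraries and 0.06 ± 0.65 in the matched ones. There edgeR called 0% of miRNAs by age or by the interaction with all libraries (89 and 55 at an unadjusted p under 0.05), but 1.92% and 0.560% in the matched ones.

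In TERM diaphragm miR-208a-3p was 2.41 ± 0.77 higher on the log2 scale at 8 months than at 3 months without passing the threshold (edgeR adjusted p = 0.265), and 1.93 ± 0.63 in the matched libraries, where the medians were 2.92 and 1.24 CPM. The interaction of age and flight of miR-208a-3p in TERM diaphragm was 4.955 ± 1.771 (edgeR adjusted p = 0.201) with all libraries. It was -0.702 ± 1.471 in the matched ones, so its direction turned. In matched TERM diaphragm 0.161% of miRNAs were called by age and 1.37% by the interaction of age and flight, and in matched LAR diaphragm 0.321% and 0.240%. With all diaphragm libraries 0% were called by either in both extractions (104 to 211 at an unadjusted p under 0.05). TERM minus LAR in heart was -0.26 to -0.09 for the members with all libraries, where 0.781% of miRNAs were called, and -0.28 to -0.21 in the matched ones, where 2.20% were. In diaphragm it was -0.50 to -0.30 with all libraries, where 4.47% were called. In matched diaphragm, where 1.19% were called, it was -0.41 for miR-208a-3p, -0.12 for miR-208b-3p, -0.11 for miR-499-3p and 0.28 for miR-499-5p, so that the direction of miR-499-5p turned. No member was called in any of these.

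Lung held the miR-208 pair without miR-499 in the heart ratio. The 46 matched lung libraries had 22.4 CPM of miR-208a-3p and 31.3 CPM of miR-208b-3p, but 1.97 CPM of miR-499-5p (0.509 to 82.6). miR-208b-3p per miR-208a-3p was 1.42 (0.309 to 3.08), without overlap with heart (0.0249 to 0.144) or diaphragm (4.42 to 83.5). miR-208a-3p per miR-499-5p was 11.9 in lung (1.10 to 44.0) and 0.660 in heart (0.367 to 1.26). A second strand was detected as well, with miR-208a-5p at a median of 0.830 CPM and at 0 in 2 of 46 libraries, and miR-208a-3p per miR-208a-5p at 27.2 in lung and 25.5 in heart. miR-206-3p was low in lung at a median of 15.5 CPM, though it reached 7247 CPM. Matched LAR medians of miR-208a-3p were 22.09 CPM in FL, 24.88 CPM in HGC and 23.65 CPM in VGC, and in TERM they were 22.17, 19.44 and 23.47 CPM, with overlap in both. No member was called between arms of matched lung, where 0.0760% of miRNAs were called in HGC vs. VGC of LAR and 0% in the other 5 comparisons, with 43 to 171 at an unadjusted p under 0.05. The lowest adjusted p was that of miR-499-5p in HGC vs. VGC of LAR, at -2.54 ± 0.63 (edgeR adjusted p = 0.18), where the VGC libraries reached 82.6 CPM.

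Thymus held miR-208a-3p with little of the rest. The 49 matched thymus libraries had 32.3 CPM of miR-208a-3p, 0.886 CPM of miR-208b-3p (0 to 21.9) and 3.68 CPM of miR-499-5p (0.319 to 148). miR-208b-3p per miR-208a-3p was 0.0236 (0.00189 to 1.14, in 44 libraries with both above 0) and miR-208a-3p per miR-499-5p was 9.27. miR-208a-5p was at 0.626 CPM and at 0 in 12 of 49 libraries, which at these depths is near the limit of a count of 0. The median of miR-208a-3p was 61.6 CPM in LAR and 14.3 CPM in TERM outside the 3 pools described below.

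In LAR thymus, matched medians of miR-208a-3p were 91.9 CPM in FL (48.3 to 320), 52.0 CPM in HGC (17.46 to 95.02) and 40.3 CPM in VGC (0 to 149), with overlap between the arms. FL vs. HGC gave 1.06 ± 0.49 (edgeR adjusted p = 0.322), which did not pass the threshold. FL vs. VGC of miR-208b-3p gave 1.92 ± 0.56 (adjusted p = 0.0613), between medians of 1.23 and 0.435 CPM.

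BAT was close to diaphragm in miR-208b-3p per miR-499-5p, at 0.500 in 40 matched BAT libraries against 0.491 in diaphragm. In BAT miR-208b-3p per miR-208a-3p was 8.82 (0.117 to 41.0), a range that reached from that of heart into that of diaphragm. miR-206-3p stood beside them at 7859 CPM (466 to 20820). SCAT had more miR-206-3p, at 10080 CPM (463 to 47450), but less miR-208b-3p, at 1.42 CPM (0 to 26.6), so that miR-208b-3p per miR-206-3p was 0.00180 in BAT, 0.000978 in diaphragm and 0.000340 in SCAT. The part of skeletal muscle in the BAT and SCAT values was not tested.

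In spleen miR-499-5p had 12.8 CPM, while the other members were low, with 0.564 CPM of miR-499-3p, 0.492 CPM of miR-208a-3p and 0.312 CPM of miR-208b-3p. miR-133a-3p, the miRNA shared by both muscles, had a median of 514 CPM in spleen, and miR-499-5p per miR-133a-3p was 0.0208 (0.00127 to 0.0899), against 0.00620 in heart (0.00279 to 0.0144) and 0.000300 in diaphragm (6.43e-05 to 0.00128). Both strands were found, with miR-499-5p per miR-499-3p at 20.0 in the 37 of 40 libraries with both above 0. In matched TERM spleen miR-208a-3p was 3.95 ± 1.00 higher on the log2 scale in FL than in HGC (edgeR adjusted p = 0.139) and 5.49 ± 1.35 higher than in VGC (adjusted p = 0.0856), neither past the threshold. These differences rest on few counts. Outside the 3 pools described below, 20 of these libraries had a median of 0.252 CPM of miR-208a-3p. Of them 8 were at 0, the third quartile was 0.794 CPM and the highest value was 43.5 CPM.

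Outside heart and diaphragm, FL vs. HGC was tested for 44 pairs of a member and a tissue in each extraction. With all libraries, 4 of 44 were called in LAR and 4 of 44 in TERM, in comparisons that called 1.25% and 0.355% of all miRNAs over the 11 tissues. In LAR these were lung miR-208a-3p (2.99 ± 0.80), miR-499-3p (8.18 ± 1.76) and miR-499-5p (7.32 ± 1.51), all higher in FL, and SCAT miR-499-3p (-3.47 ± 1.00), where 1.58% of miRNAs were called in lung and 3.75% in SCAT. In TERM they were liver miR-208a-3p (-7.78 ± 1.44), miR-499-3p (-5.95 ± 1.58) and miR-499-5p (-5.68 ± 1.27) and lung miR-499-5p (-6.47 ± 1.45), all lower in FL, where 0.309% of miRNAs were called in liver and 1.36% in lung.

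Each lung or liver group that was higher held a single library with the heart profile. In LAR lung it was the FL library of mouse 14, and without it the LAR count fell to 1 of 44. Leaving out HGC mouse 1 or HGC mouse 2 of lung, neither of which had that profile, also left 1. In TERM it was the HGC library of mouse 11 in liver and of mouse 3 in lung. Without the libraries of another tissue's profile 0 of 44 pairs were called in either extraction (10 and 8 at an unadjusted p under 0.05). Of all miRNAs, those fits called 20 of 1278 in SCAT and 11 of 1260 in liver in LAR. They called 0 in LAR lung, kidney and thymus, and 0 in each of these tissues in TERM. Shares for the remaining tissues are not given here. The Wilcoxon rank-sum test called 0 pairs in both extractions (5 and 1), and its share of all miRNAs is not given. In matched libraries lung miR-208a-3p was -0.09 ± 0.27 in LAR, lung miR-499-3p 2.45 ± 1.12 (edgeR adjusted p = 0.296) and lung miR-499-5p 0.81 ± 0.64 in LAR and 0.42 ± 0.53 in TERM, liver miR-208a-3p was -2.27 ± 0.71 (edgeR adjusted p = 0.179) and liver miR-499-5p was 0.00. No SCAT library had the heart profile. SCAT miR-499-3p was -2.40 ± 1.30 (edgeR adjusted p = 0.293) in the matched libraries, which leave out 2 HGC libraries with the diaphragm profile, at 10.2 and 5.31 CPM.

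The comparisons with VGC called fewer pairs with all libraries, namely 1 of 44 in FL vs. VGC and 2 of 44 in HGC vs. VGC of LAR, all in kidney, and 0 and 2 of 44 in TERM, both in liver. LAR kidney held the VGC library of mouse 13, with the heart profile, at 837 CPM of miR-208a-3p and 1102 CPM of miR-499-5p. FL vs. VGC of miR-208a-3p was -6.22 ± 1.27 with all libraries, where 0.154% of miRNAs were called, and -1.97 ± 0.63 (edgeR adjusted p = 0.366) in matched libraries. HGC vs. VGC gave -5.66 ± 1.24 for miR-208a-3p and -5.99 ± 1.43 for miR-499-5p with all libraries, where 0.772% were called. Leaving out the doubtful pools kept mouse 13, and there all 4 members were called in kidney in both comparisons, which called 1.32% (FL vs. VGC) or 1.25% (HGC vs. VGC) of miRNAs. In TERM liver HGC vs. VGC gave 5.40 ± 1.30 for miR-208a-3p and 5.14 ± 1.30 for miR-499-5p, where 2.55% were called, and neither was called in matched libraries. In matched LAR kidney miR-499-5p was called in FL vs. VGC at -2.43 ± 0.57 (edgeR adjusted p = 0.0366), where 0.469% of miRNAs were called. There the 9 FL libraries had 0.545 to 4.24 CPM and the 6 VGC libraries 1.54, 1.74, 2.22, 2.84, 8.87 and 40.8 CPM, so that the groups overlapped and 1 VGC library, of mouse 14, stood apart.

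The 7 libraries with the heart profile under another label carried heart levels of the members. They were diaphragm VGC LAR mouse 4, kidney VGC LAR mouse 13, lung FL LAR mouse 14 and, in TERM, liver HGC mouse 11, lung HGC mouse 3, thymus HGC mouse 11 and thymus VGC mouse 11. miR-208a-3p was at 702 to 1182 CPM and miR-499-5p at 1102 to 1953 CPM in them, both within the range of matched heart, and miR-206-3p was at 11.3 to 347 CPM. The 4 members had been left out of the profile, while miR-208a-5p, the opposite strand of miR-208a, had not.

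The 10 heart libraries with another profile were split. The 5 with almost none of miR-208a-3p had 0.231, 0.526, 1.21, 2.06 and 2.95 CPM, 1 had 17.2 CPM with the profile of lung, and 4 had 160, 186, 385 and 391 CPM. The library of FL LAR mouse 13 had 2.06 CPM of miR-208a-3p, 32.0 CPM of miR-208b-3p and 23760 CPM of miR-206-3p, which are diaphragm values. In 3 pools a heart library with another profile and another library with the heart profile occurred together. HGC LAR mouse 8 of heart and FL LAR mouse 14 of lung shared pool ISS40, FL TERM mouse 14 of heart and VGC LAR mouse 13 of kidney shared pool ISS34, and HGC and VGC TERM mouse 12 of heart and HGC TERM mouse 3 of lung shared pool ISS5.

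Lower levels outside the heart were more widespread. Of the 636 libraries outside heart, 27 had more than 100 CPM of miR-499-5p, of which 7 had the heart profile, 6 another profile than their label and 14 their own. Outside diaphragm as well, 15 of 577 libraries did, with 6, 5 and 4 in these classes. For miR-208a-3p 19 of 636 libraries were above 100 CPM, with 7 of the heart profile, 5 of another and 7 of their own, and for miR-208b-3p 3 libraries were.

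Pools ISS20, ISS21 and ISS22, all on plate 4, stood above the rest. Leaving out heart, diaphragm, BAT and SCAT libraries, the pool medians of miR-499-5p were 18.2 CPM (n = 6), 58.1 CPM (n = 11) and 21.2 CPM (n = 7), against 0.746 to 6.19 CPM in the other 41 pools. miR-208a-3p was above 10 CPM in 17 of 24 libraries of the 3 pools and in 110 of 435 libraries of the others. Their pool medians of miR-208a-3p were 21.9 to 61.7 CPM and at most 13.3 CPM elsewhere, and those of miR-208b-3p were 4.98 to 10.1 CPM and at most 2.39 CPM elsewhere.

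The 24 libraries came from 8 tissues and every arm, and 7 of them had another tissue's profile. Of the brain libraries, which all had their own profile, the 2 in these pools held 21.2 and 96.2 CPM of miR-499-5p, against 1.67 to 15.3 CPM in the 23 others. Spleen went the other way, with 4.94 and 5.69 CPM in these pools against a median of 12.9 CPM in 38 matched libraries of the other pools. The pools were picked for these values, so the comparison is a description. The 2 matched lung libraries of these pools, both LAR, held 17.2 and 21.9 CPM of miR-208a-3p and 2.06 and 3.36 CPM of miR-499-5p, against medians of 23.7 and 1.97 CPM in 24 matched LAR lung libraries of the other pools. The 3 matched thymus libraries of these pools, all TERM, held 0 to 61.7 CPM of miR-208a-3p and 0.319 to 58.1 CPM of miR-499-5p (medians of 35.9 and 27.6 CPM), against medians of 14.3 and 3.68 CPM in 21 matched TERM thymus libraries of the other pools. The 5 heart libraries of these pools held 182 to 860 CPM of miR-499-5p with a median of 418 CPM, and 4 of them had another profile than heart.

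**Figure D5:**
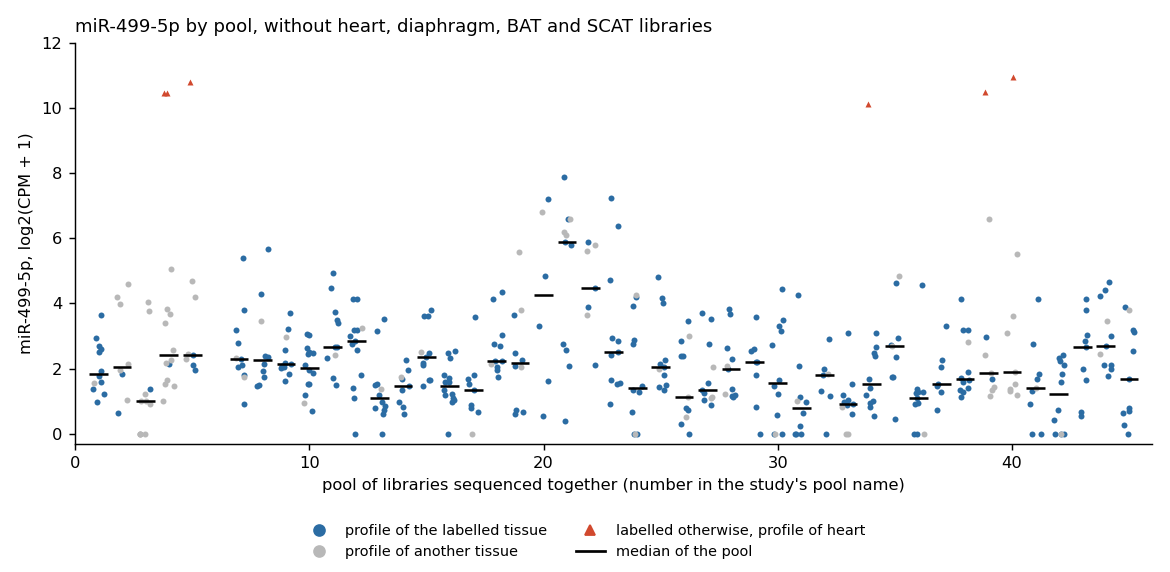
miR-499-5p, as log2(CPM + 1), is plotted by sequencing pool for the libraries other than heart, diaphragm, BAT and SCAT, with the symbols for matched libraries, libraries of another profile and libraries with the heart profile. Pools 20 to 22 have medians of 18.2 to 58.1 CPM, all other pools medians of at most 6.19 CPM, and the isolated triangles at the top are the libraries with the heart profile.

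Over all 686 libraries, the miRNAs with the most similar pattern to each member were found among 1426 by Pearson's r of log2(CPM + 1), given as a description, since tissues and pools are shared by the points. miR-208a-3p was most like its opposite strand miR-208a-5p (0.885), then miR-499-3p (0.682) and miR-499-5p (0.676). miR-208b-3p was most like miR-133a-5p (0.755), miR-1a-3p (0.747) and miR-133a-3p (0.726), the miRNAs of all striated muscle. miR-499-5p was most like miR-499-3p (0.926), miR-208a-5p (0.748) and miR-208b-3p (0.723), and miR-499-3p, after its partner strand, was most like miR-208a-5p (0.793) and miR-149-5p (0.719). Over the 523 matched libraries the first of these values for miR-208a-3p, miR-208b-3p and miR-499-5p were 0.890, 0.746 and 0.930.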

How the data were processed

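Small RNA libraries of 13 tissues were sequenced by the authors, who profiled the reads with miRMaster against the GRCm39 genome and the miRBase entries. The values the authors deposited are estimated counts per miRNA and library, without normalization; the filters inside miRMaster are not given in the sources used here. A read that fits several miRNAs can be divided between them. Pools and plates were taken from the supplementary sample list of the paper. No measured value of it was used, and 0 columns of samples were left unused.

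The 4 members, and the list of 11 other striated muscle miRNAs, were chosen with earlier results of these data known. Members were described by CPM of miRNA counts. For tests, counts were rounded and a miRNA was kept if 5 or more reads occurred in 10% or more of the libraries of any tissue and arm of an extraction (1353 in LAR, 1347 in TERM). edgeR 4.0.16 (R 4.3.3, limma 3.58.1) was run with its quasi-likelihood test and TMM factors, as 1 fit for each tissue and extraction over the 3 arms, with further models for heart against diaphragm, age and extraction, and Benjamini-Hochberg adjustment over all miRNAs at 0.05. Scripts were tested on simulated data. Named miRNAs were the members, the muscle list and the 3 most similar miRNAs of each member.

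Profiles were correlated on 726 miRNAs whose highest tissue median was over 2-fold the median tissue. Alternatives were DESeq2 1.42.0, the Wilcoxon test, other factors and filters, leaving out libraries or pools, and replicate blocks. Mice of different arms share numbers but are different animals, and the median correlation of same-numbered heart or diaphragm libraries between arms was -0.082 to 0.211. Heart and diaphragm of 1 mouse carry the same arm, extraction and number (median correlation 0.142 over 12 pairs in LAR and 0.035 over 27 in TERM), and blocking by mouse kept the 4 calls. Replicates are separate mice. Plots used Python 3.11.15, pandas 2.3.3 and matplotlib 3.10.9.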

Additional observations from a re-analysis of the deposited data

Results flagged for a closer look

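In heart and diaphragm, 48 groups of a member, tissue, arm and extraction were examined. In 29 of them the highest or lowest library stood apart from the others by Dixon's criterion. Chance meets this criterion in about 1 in 20 groups. The groups are not independent, since all members were read in the same libraries and several libraries were flagged for more than a single member. The count of 29 can therefore not be weighed against that rate. Each flagged library had the profile of a tissue other than its label. Values are CPM.

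In LAR heart, FL mouse 13, with the profile of diaphragm, was lowest at 2.06 of miR-208a-3p (group median 1002), 103 of miR-499-5p (1153) and 7.74 of miR-499-3p (45.5). HGC mouse 8, with that of lung, was lowest at 17.2 of miR-208a-3p (1044) and 1.41 of miR-499-5p (1899). VGC mouse 9, with that of kidney, was lowest at 0.231 of both miR-208a-3p (868) and miR-208b-3p (106), at 1.38 of miR-499-5p (1145) and at 0 of miR-499-3p (34.7).

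In TERM heart, FL mouse 14, with the profile of kidney, was lowest at 2.95 of miR-208a-3p (694), 0.537 of miR-208b-3p (42.5) and 1.34 of miR-499-5p (1002). HGC mouse 12, with that of spleen, was lowest at 1.21, 0.304, 16.1 and 0 of miR-208a-3p, miR-208b-3p, miR-499-5p and miR-499-3p, where the group medians were 838, 60.2, 1501 and 34.6. VGC mouse 12, also with that of spleen, was lowest at 0.526, 1.05, 23.9 and 1.05, beside medians of 830, 69.4, 1575 and 41.2.

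In LAR diaphragm, miR-208a-3p was highest at 23.9 in FL mouse 2 (lung profile) and at 842 in VGC mouse 4 (heart profile), while miR-208b-3p was lowest at 0 in FL mouse 13 and at 1.69 in VGC mouse 11 (both with the profile of pancreas). In TERM diaphragm, miR-208a-3p was highest at 47.4 in FL mouse 14 (brain profile) and at 164 in VGC mouse 12 (pancreas profile). miR-499-3p was lowest at 0 in HGC mouse 16 (spleen profile), and VGC mouse 4 (liver profile) was lowest at 0 of miR-208b-3p and 0.222 of miR-499-5p. What lay behind these profiles was not tested.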

How the results depend on the processing

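The calls of miR-208a-3p, miR-499-5p and miR-499-3p in heart over diaphragm held under every alternative run. So did the absence of calls for age, extraction, the interaction of age and flight and FL vs. HGC of diaphragm. The call of miR-208b-3p was lost in LAR with DESeq2 size factors or no filter and in TERM with DESeq2 size factors, library size alone or DESeq2, which left 3 of the 4 called. In LAR heart, FL vs. HGC went from 0 members called to 1 (miR-208b-3p) without the doubtful pools or without the libraries of another profile. In the other 11 tissues the 4 calls of LAR FL vs. HGC became 2 with library size alone or DESeq2, 1 with robust dispersions and 0 with the Wilcoxon test, the replicate block, or without those pools or libraries, and leaving out single lung libraries gave 1 to 4. The 4 of TERM became 3 with DESeq2 size factors, library size alone, the filter over the groups in the fit or no filter, 1 with robust dispersions and 0 with DESeq2, the Wilcoxon test, the replicate block and without those pools or libraries. The share of all miRNAs called under each alternative is not given here, so these losses cannot be read as particular to the members. Blocking arms by mouse number pairs different animals, so the calls lost there are not read as weaker effects, and it changed no call in heart or diaphragm. The 27 libraries outside heart above 100 CPM of miR-499-5p became 205 above 10 CPM, 7 above 1000 CPM, 14 without the libraries of another profile and 12 without the doubtful pools. The near-zero TERM heart difference of miR-208b-3p in FL vs. HGC changed sign with DESeq2 size factors (-0.031), DESeq2 (-0.031), the Wilcoxon test's median difference (-0.493) and the replicate block (-0.098), and leaving out each library gave -0.448 to 0.166; none passed the threshold. The cause was not tested. Low members outside heart rest on few counts, since 3 counts were 0.774 CPM in the median library, and the 5 matched FL and 5 matched HGC heart libraries limit LAR.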

Other observations

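The opposite strands of the miR-208 hairpins were counted at different levels in heart. In matched heart miR-208b-5p had a median of 0.151 CPM (0 to 0.808) beside 71.9 CPM of miR-208b-3p, whereas miR-208a-5p had 36.9 CPM (17.6 to 78.4) beside 914 CPM of miR-208a-3p. The 5′ strands share bases 2 to 8, the seed, and they are shown for that reason, with the seed in capitals.
miR-208a-5p: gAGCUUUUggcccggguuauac
miR-208b-5p: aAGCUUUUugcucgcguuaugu
This seed is shared by miR-6415. Since ligation does not treat all sequences alike, these levels do not count molecules, and the source of the difference was not tested.

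miR-206-3p, the skeletal muscle marker, was itself called in TERM heart, at 5.12 ± 1.18 on the log2 scale in FL vs. VGC (edgeR adjusted p = 0.026) with all libraries but not with the matched ones. Its interaction of age and flight was -9.03 ± 1.68 (adjusted p = 0.010) with all libraries and -6.79 ± 1.33 (adjusted p = 0.022) with the matched ones, in which miR-206-3p ranged from 5.61 to 1053 CPM over both extractions.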
